A study of Mus musculus with 7 samples.

Results

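The genes described here encode the subunits of the proteasome, the cytosolic and nuclear machine that degrades ubiquitin-tagged proteins, together with its activators. They were taken by symbol (Psma, Psmb, Psmc, Psmd or Psme followed by a number), with the interferon-inducible catalytic subunits Psmb8, Psmb9 and Psmb10 set apart. The rule found 40 genes among the 26130 of the count table. They comprised 8 alpha and 8 beta subunits of the 20S core, 6 ATPases and 3 other subunits of the 19S base, 8 subunits of the 19S lid, 3 chaperones of 19S assembly that carry Psmd symbols, and 4 members of other activators. Of the 40, 39 had enough counts to be tested. The exception was Psmb11, the thymus-specific beta subunit, which had 0 counts in 6 libraries and 1 count in the LPS Fth1-low replicate 2 library.

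RNA came from lung cells of mice that carried both a Fth1-mScarlet reporter and Lyz2GFP, in every group. Fth1 encodes the ferritin heavy chain, and Lyz2, which drives the GFP, encodes lysozyme of myeloid cells. Cells were sorted as Lyz2GFP+CD11b+Ly6C+Ly6G- and gated by mScarlet signal. The 3 groups were Fth1-low cells of untreated mice (n = 2 libraries), Fth1-low cells of mice given 20 µg of lipopolysaccharide (LPS, an outer membrane component of Gram-negative bacteria) in 50 µl into the trachea 3 days earlier (n = 2), and Fth1-high cells of mice given the same LPS (n = 3). The labels give neither age nor sex of the mice. They do not say whether libraries were single mice or pools, nor whether Fth1-low and Fth1-high cells came from the same LPS-treated mice. The p-values therefore measure only the spread between these libraries, which may be technical. Fth1-high cells of untreated mice were not analysed here, so treatment and gate cannot be told apart where LPS Fth1-high cells are set against untreated ones.

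Total counts ran from 10459703 to 27997007 in 6 libraries and were 637787 in the LPS Fth1-low replicate 1 library, where ribosomal RNA genes took 19.5% of counts against 0.705% to 8.42% elsewhere. Levels are given as CPM, the usual depth-scaled count, on library sizes scaled by TMM. In the shallow library 1 count equals 1.67 CPM, and the 38 proteasome genes with any count had 7 to 196 counts each. Fth1 was at 1672 and 1786 CPM in untreated cells, 2970 and 4825 in LPS Fth1-low cells, and 13230, 21000 and 20470 in LPS Fth1-high cells. The sort markers Lyz2 (6140 to 12500 CPM) and Itgam, which encodes CD11b (750 to 2109 CPM), were present in every library, and Ly6g was at 0 to 0.0932 CPM. Lung epithelial markers (5 genes) summed to 691.1 CPM in the untreated replicate 1 library, 494 of it from the surfactant gene Sftpc, against 3.36 CPM in replicate 2 and 10.4 to 93.4 CPM in the other groups. Endothelial markers (4 genes) summed to 246.4 CPM in untreated replicate 1, against 53.1 CPM in replicate 2. In the shallow LPS Fth1-low library, B and plasma cell markers (6 genes) summed to 93.8 CPM and fibroblast markers (4 genes) to 117.2 CPM. In LPS Fth1-low replicate 2 these sums were 15.8 and 13.0 CPM. Alveolar macrophage markers (6 genes) summed to 1468 and 1451 CPM in untreated, 3204 and 5822 in LPS Fth1-low, and 480, 1887 and 769 in LPS Fth1-high cells, nearly all of it from Chil3, with Siglecf at 0.732 to 5.02 CPM. Neutrophil markers (7 genes) summed to 386 and 435, to 568 and 565, and to 312 to 354 CPM, nearly all from Csf3r and Mmp8, with Camp at 0 to 1.25 CPM. Both lists were highest in the LPS Fth1-low libraries. Dendritic cell markers (6 genes) summed to 103.4 and 104.1 CPM in untreated, 70.3 and 71.9 in LPS Fth1-low, and 11.2 to 17.3 in LPS Fth1-high cells. Proliferation markers (7 genes) summed to 99.3 and 109.5, to 123.5 and 144, and to 163.3 to 237.7 CPM, with Mki67 alone at 8.91 and 13.2, 39.0 and 41.9, and 78.6 to 141.5 CPM. Pcna, the highest of the 7 in untreated cells, did not rise with the sum. It was at 72 and 79.6, 60.3 and 62.6, and 56.9 to 73.8 CPM in the same order. Top2a was higher in every LPS library (5.86 to 25.1 CPM) than in the untreated ones (5.03 and 5.58). The same held for Mcm5 (12.87 to 15.07 against 10.81 and 10.95 CPM). Ccnb1 and Cdk1 stayed at or below 1.70 CPM in all 7 libraries. The part of these markers in the results below was not tested, and in sorted bulk cells fewer cells of a type and less RNA per cell cannot be told apart.

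The 26S proteasome consists of a barrel of stacked alpha and beta rings (20S) capped by the 19S regulatory particle. The beta subunits Psmb5, Psmb6 and Psmb7 carry the proteolytic sites of the constitutive core, the ATPases of the 19S base unfold the substrate, and the lid removes its ubiquitin. During inflammation, immunosubunits can replace the constitutive catalytic subunits and the 11S activator of Psme1 and Psme2 can replace the 19S cap, which alters the peptides available for MHC class I. Transcription of the constitutive genes is known to be raised through NRF1 (Nfe2l1) when proteasome capacity is short.

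A minority of the proteasome genes, spread over all 7 subunit classes, rose in LPS Fth1-high against untreated cells. In edgeR's quasi-likelihood test (adjusted p below 0.05 over 13665 genes, Benjamini-Hochberg), 13 of 39 tested members rose and 0 fell, where 12.4% of all tested genes rose and 11.9% fell (24.3% in either direction). Those 13 were Psma3, Psma5, Psma6, Psmb5, Psmb6, Psmb7, Psmc6, Psmd1, Psmd2, Psmd7, Psmd11, Psmd10 and Psme2. The difference was above 0 for 37 of the 39, against 51.4% of all tested genes, and its median was 0.56 on the log2 scale, against 0.03 over all tested genes. The libraries of the groups did not overlap, with LPS Fth1-high cells higher, for 25 members, which is the case for 30.3% of all tested genes. They did not overlap in the other direction for 1 member, Psma7, where the share of all genes is 27.8%.

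The number of members that rose depended on single libraries. It was 5 without untreated replicate 1, 3 without untreated replicate 2, 6 without LPS Fth1-high replicate 2 and 7 without LPS Fth1-high replicate 3, and all of those were among the 13. Leaving out LPS Fth1-high replicate 1, LPS Fth1-low replicate 2 or LPS Fth1-low replicate 1 gave 10, 18 and 19. Psmd10, Psme2 and Psma5 kept their calls without any 1 of the 7 libraries. The median difference stayed between 0.42 and 0.68 over those same 7 fits. Calls among all tested genes changed as well. Without LPS Fth1-high replicate 1, 2 or 3, 21.7%, 16.6% and 17.1% of them were called in either direction, against 24.3% with all libraries. That share also fell without either untreated library, which left 1 library in the untreated group.

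Within LPS-treated mice, 0 of 39 members differed between the mScarlet gates at adjusted p below 0.05 in edgeR's test, where 8.25% of all tested genes did (3.68% higher and 4.57% lower in Fth1-high cells). The libraries did not overlap for 14 members with Fth1-high cells higher, against 24.2% of all genes, and for 1 (Psma7) with them lower, against 17.1%. At an unadjusted p below 0.05, 6 members were higher (Psmb5, Psmb6, Psmd1, Psmd2, Psmd11 and Psmd10) and Psma7 was lower, while 10.9% and 10.8% of all genes were higher and lower at that level. The median difference was 0.27, against 0.04 over all tested genes, and it was above 0 for 30 of 39 members and 52.6% of all genes. DESeq2's Wald test called 2 members higher (Psmd1 and Psmb6), and limma-voom called 0 with and without sample weights. The share of all genes called in either direction was 11.5% in DESeq2, 7.96% in limma-voom with weights and 10.2% without them. Without LPS Fth1-low replicate 2, 4 members were called higher (Psmd1, Psmd12, Psmd2 and Psmc3) and the median was 0.57, when the median over all genes was 0.28. Leaving out LPS Fth1-high replicate 1 gave 1 member called higher (Psmd10), when 7.29% of all genes were called in either direction.

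In Fth1-low cells, LPS raised 1 of 39 members at adjusted p below 0.05 in edgeR's test, where 2.99% of all tested genes rose and 0.629% fell (3.62% in either direction). This was Psme2, a subunit of the 11S activator. At an unadjusted p below 0.05, 4 members were higher and 0 lower, against 7.81% and 5.58% of all genes. The libraries did not overlap for 12 members with LPS higher and for 0 with LPS lower, against 16.3% and 23.2% of all genes. The median difference was 0.29, against -0.05 over all tested genes, and 33 of 39 differences were above 0, against 45.7% of all genes. Without LPS Fth1-low replicate 2 the median was -0.056, when that over all genes was -0.27. The comparisons share libraries in pairs (the untreated, the LPS Fth1-low or the LPS Fth1-high ones), so they do not repeat each other independently.

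**Figure D1:**
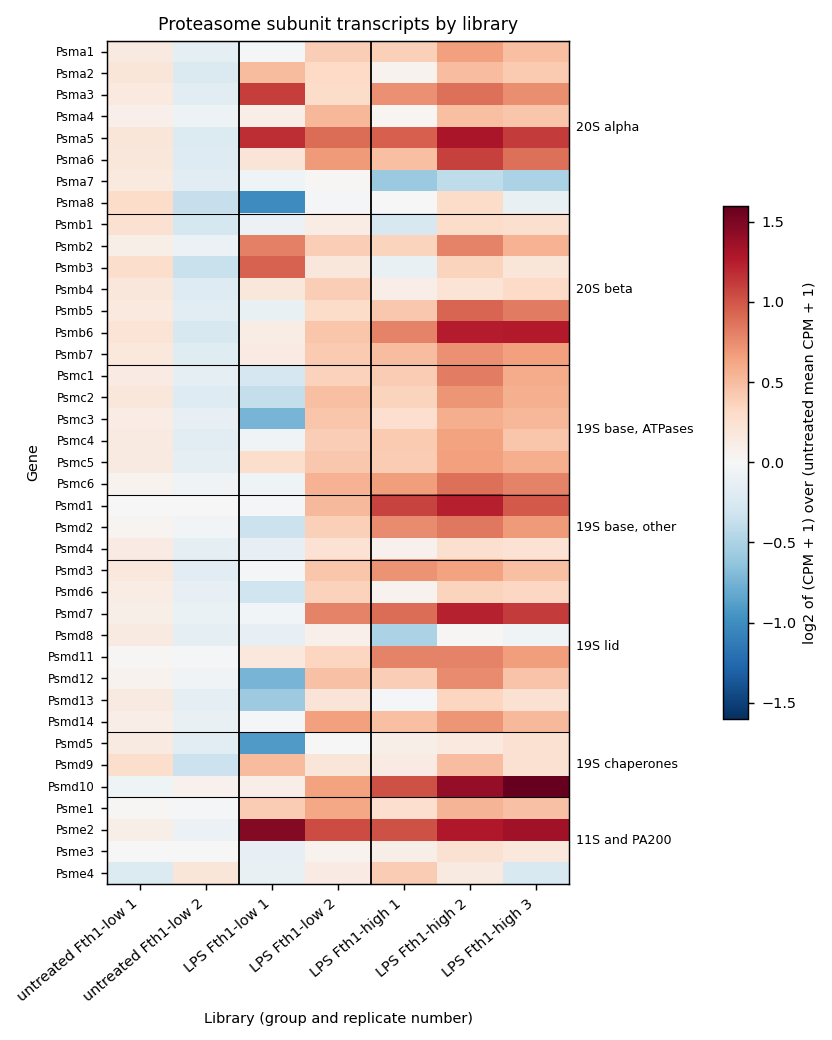
Heat map of 39 proteasome genes (rows, by subunit class) in 7 libraries (columns, by group). Colour is the log2 ratio of CPM + 1 to the mean CPM + 1 of the untreated libraries. Psma5 and Psme2 are red in both LPS groups, Psmb6, Psmd1 and Psmd10 mainly in LPS Fth1-high cells, and Psma7 is blue there.

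**Figure D2:**
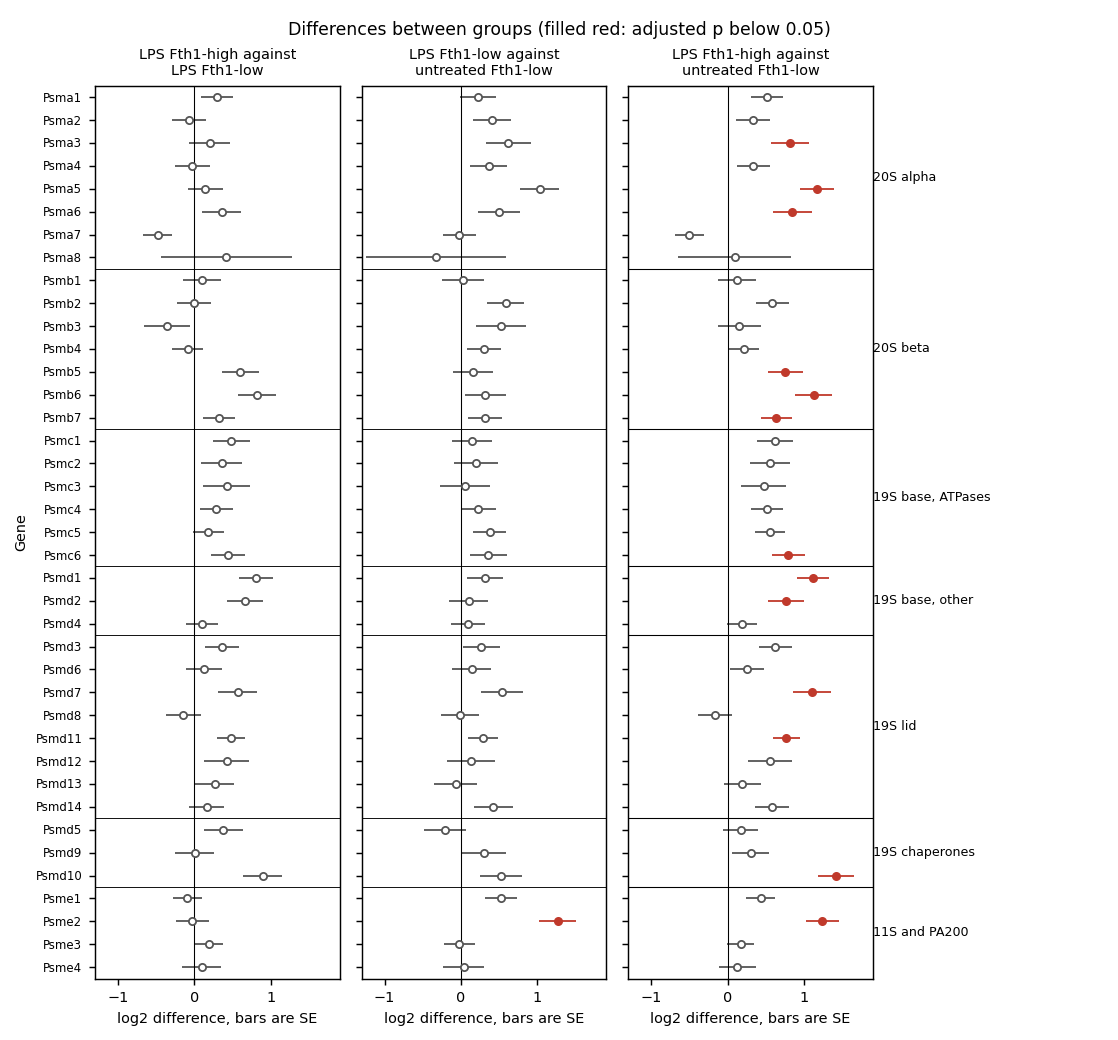
Log2 differences (points) with standard errors (bars) of the 39 genes in the 3 comparisons, 1 panel each. Filled red points have an adjusted p below 0.05: 0 of 39 in the left panel, Psme2 alone in the middle and 13 of 39 on the right.

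Promoter sequences were read to show what the genes that rose share and do not share. RefSeq windows of GRCm38.p6 (250 bases before to 50 after each start site) were matched for 33 of the 40 genes, and Psma8, Psmb1, Psmb2, Psmb7, Psmc3, Psmd3 and Psmd7 had no window there. Both strands were searched for 3 motifs, chosen with the expression results known. The core of the antioxidant response element, TGACNNNGC, which NRF1 and NRF2 bind with small Maf partners, was found in 6 of 33 genes (18.2%, against 14.0% of all genes with a window). These were Psmb5, Psmb6, Psmc6, Psmd12, Psmd9 and Psme4, and 3 of the 6 rose in LPS Fth1-high against untreated cells, against 8 of the 26 tested members whose window lacks it. Of all tested genes, 12.4% rose in that comparison, and this share was not split by motif. The median log2 difference was 0.66 with the motif and 0.51 without it. The 3 that rose are printed in the direction of transcription with the motif, or its reverse complement in Psmc6, in capitals. Psmd12, Psmd9 and Psme4, which hold the motif and did not pass the test, are not printed.
Psmb5 (chr14:54618023-54618142, minus strand): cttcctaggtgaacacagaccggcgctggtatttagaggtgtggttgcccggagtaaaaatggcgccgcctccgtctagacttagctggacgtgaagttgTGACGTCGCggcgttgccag
Psmb6 (chr11:70525237-70525356, plus strand): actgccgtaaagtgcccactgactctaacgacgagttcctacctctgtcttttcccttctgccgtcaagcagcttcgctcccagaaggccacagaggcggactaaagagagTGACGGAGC
Psmc6 (chr14:45329577-45329696, plus strand): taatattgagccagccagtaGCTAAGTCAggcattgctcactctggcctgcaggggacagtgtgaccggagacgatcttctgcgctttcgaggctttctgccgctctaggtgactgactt

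The motif lies close to the start site in Psmb5 and Psmb6, at positions -47 and -9, and at -227 in Psmc6. These are matches of letters to a short pattern and say nothing of binding in these cells.

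The core of an ETS factor site, ACTTCCG, was found in 13 of 33 members (39.4%), against 7.2% of all genes with a window. Of the 13, 1 (Psma6) rose in LPS Fth1-high against untreated cells, against 10 of the 19 tested members whose window lacks it. Of all tested genes 12.4% rose there, so 1 of 13 is near the share of all genes. Whether genes with this core rose less often was not tested. The median log2 difference was 0.34 with the motif and 0.76 without it. The members with an ETS core were Psma4, Psma6, Psmb4, Psmc1, Psmc2, Psmc4, Psmd6, Psmd8, Psmd12, Psmd13, Psmd14, Psme3 and Psme4. One from each of 3 classes is printed with the motif in capitals, all of genes that did not pass the test. Psma6, which rose, is not printed. The printed genes were picked with the results known.
Psma4 (chr9:54950670-54950789, plus strand): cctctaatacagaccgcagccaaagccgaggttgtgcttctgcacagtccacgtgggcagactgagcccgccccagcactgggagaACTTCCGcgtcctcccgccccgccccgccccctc
Psmc2 (chr5:21785155-21785274, plus strand): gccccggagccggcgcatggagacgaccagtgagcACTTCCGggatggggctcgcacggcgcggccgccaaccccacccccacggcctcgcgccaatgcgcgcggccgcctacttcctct
Psmd14 (chr2:61711574-61711693, plus strand): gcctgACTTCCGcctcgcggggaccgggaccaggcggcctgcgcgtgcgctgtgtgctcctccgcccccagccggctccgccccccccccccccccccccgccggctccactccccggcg

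Of the members that rose, 7 have a window with none of the 3 motifs (Psma3, Psma5, Psmd1, Psmd2, Psmd10, Psmd11 and Psme2). The stretch before the start site is shown for 3 of them, from the chaperones, the lid and the activators, all in lower case.
Psmd10 (chrX:140956729-140956848, minus strand): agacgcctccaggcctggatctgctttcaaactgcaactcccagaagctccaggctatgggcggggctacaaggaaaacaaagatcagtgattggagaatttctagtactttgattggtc
Psmd11 (chr11:80428495-80428614, plus strand): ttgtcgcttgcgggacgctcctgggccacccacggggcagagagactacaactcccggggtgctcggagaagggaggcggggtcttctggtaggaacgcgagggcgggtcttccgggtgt
Psme2 (chr14:55591114-55591233, minus strand): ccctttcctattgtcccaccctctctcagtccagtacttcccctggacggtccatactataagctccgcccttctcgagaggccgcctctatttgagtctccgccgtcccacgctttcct

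The core of the interferon-stimulated response element, searched as 2 copies of GAAA with 2 bases of any kind between them, was in the windows of Psmb3, Psmd4, Psmd9 and Psme1 (4 of 33, 12.1%, against 3.99% of all genes). Of these 4, 0 were called in LPS Fth1-high against untreated cells, against 24.3% of all tested genes. Psme1 holds this core as its reverse complement just after the RefSeq start site, shown in capitals.
Psme1 (chr14:55578494-55578523, plus strand): gagctgtgcTTTCGCTTTCccttcccgctg

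Summed by class, transcripts of the alpha subunits were at 661 ± 108 CPM in untreated cells (SD, n = 2), 793 ± 58.5 in LPS Fth1-low cells (n = 2) and 791.5 ± 100.3 in LPS Fth1-high cells (n = 3). The beta subunits were at 579 ± 117, 709.8 ± 21.3 and 813 ± 112 CPM. The 19S ATPases were at 411 ± 57.0, 457 ± 146 and 611 ± 62.8 CPM, and the lid at 604 ± 77.2, 647 ± 169.7 and 773 ± 74.6 CPM. The 3 other base subunits were at 335.5 ± 21.8, 364 ± 103 and 553 ± 34.1 CPM, and here all 3 LPS Fth1-high libraries (528 to 592 CPM) lay above the other 4 (291 to 437 CPM). The chaperones were at 62.6 ± 8.55, 69.8 ± 11.1 and 103.7 ± 14.3 CPM, also without overlap. Among the chaperones, only Psmd10 was itself higher in all 3 LPS Fth1-high libraries than in the other 4. The activators were at 504 ± 11.8, 678.7 ± 34.1 and 677.5 ± 36.5 CPM, with both LPS groups above the untreated one and overlapping each other. No test was made of these sums, since they add up genes chosen with results known.

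**Figure D3:**
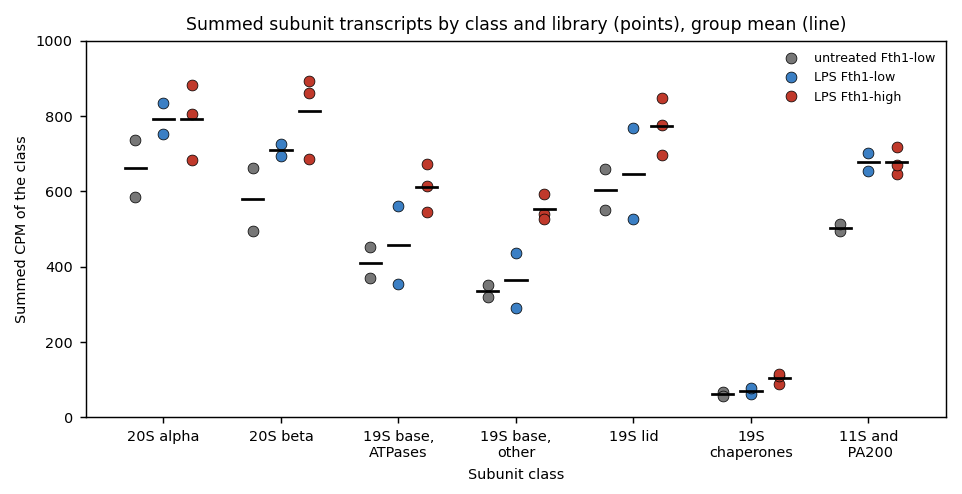
Summed CPM of each subunit class (horizontal axis) in the 7 libraries, with points coloured by group and lines at group means. The 19S base subunits without ATPase activity and the chaperones are highest in all 3 LPS Fth1-high libraries, and the 11S and PA200 genes are above untreated in both LPS groups. Among the chaperones this separation holds for Psmd10 alone.

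The balance between 19S and 20S transcripts was given by the share of base and lid genes. They held 51.1% (95% exact binomial interval 50.7% to 51.5%) and 53.4% (52.8% to 54.1%) of the counts of both particles in the untreated libraries, 53.1% (52.7% to 53.5%) in LPS Fth1-low replicate 2 and, among LPS Fth1-high libraries, 56.6% (56.1% to 57.0%), 54.3% (54.0% to 54.6%) and 53.5% (53.2% to 53.8%). The shallow LPS Fth1-low replicate 1 library stood apart at 44.8% (42.3% to 47.3%). Within that group all 17 of the base and lid genes were lower in replicate 1 than in replicate 2, against 9 of 14 core genes. The intervals cover counting error only. The SDs of the 19S classes in LPS Fth1-low cells, the widest of the 3 groups, come from this pair. Over the 39 tested members, the difference of LPS Fth1-low from untreated cells correlated with log2 exon length at -0.44 (Pearson). The correlation was -0.2 for LPS Fth1-high against untreated cells and 0.16 between the LPS groups. The part of transcript length in the 19S share was not tested.

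Compared per kilobase of exons, the transcript level differed widely between subunits that are used in equal number in the particle. In untreated cells the highest core gene, Psma7 (206 ± 34.6 CPM per kb), was 35.5 times the lowest, Psma3 (5.80 ± 0.971), leaving out the tissue-specific Psma8 and Psmb11. The length merges the exons of all annotated protein-coding transcripts of a gene, so it can exceed that of any 1 transcript. It was 1180 bp for Psma7 and 2846 bp for Psma3, so part of this spread comes from the lengths. Without division by length, Psma7 was at 243.1 CPM and Psma3 at 16.5 CPM in untreated cells. The 17 base and lid genes spanned 7.22-fold in untreated cells, from Psmd11 (12.6 ± 0.248) to Psmd8 (90.7 ± 13.6), and 4.21-fold in LPS Fth1-high cells. The highest of all 40 in every group was Psme1, with 221 ± 5.09, 317 ± 31.7 and 299 ± 29.4 CPM per kb. Psmb6 stood at 92.4 ± 21.3, 113 ± 17.8 and 203 ± 35.5 CPM per kb, and it passed from the fifth place in untreated cells to the second in LPS Fth1-high cells, ahead of Psma7. Psme2 passed from the 16th place (48.7 ± 4.47) to the fifth (120 ± 24.9) and the eighth (115 ± 13.6). Low levels of some genes are uncertain, because 58-base stretches of their transcripts, the length of a read, also occur in other annotated transcripts, mostly pseudogenes. The shared part was 51.8% in Psme2 (with Psme2b), 49.6% in Psma5, 48.8% in Psmb3, 48.2% in Psmb5, 21.7% in Psma3 and 21.3% in Psmd2, and the sources used here do not say how reads of such stretches were assigned. Psmd10, Psma6, Psma7, Psmb7, Psmc6 and Psmd7 shared 0%, and Psmb6 shared 1.62%.

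**Figure D4:**
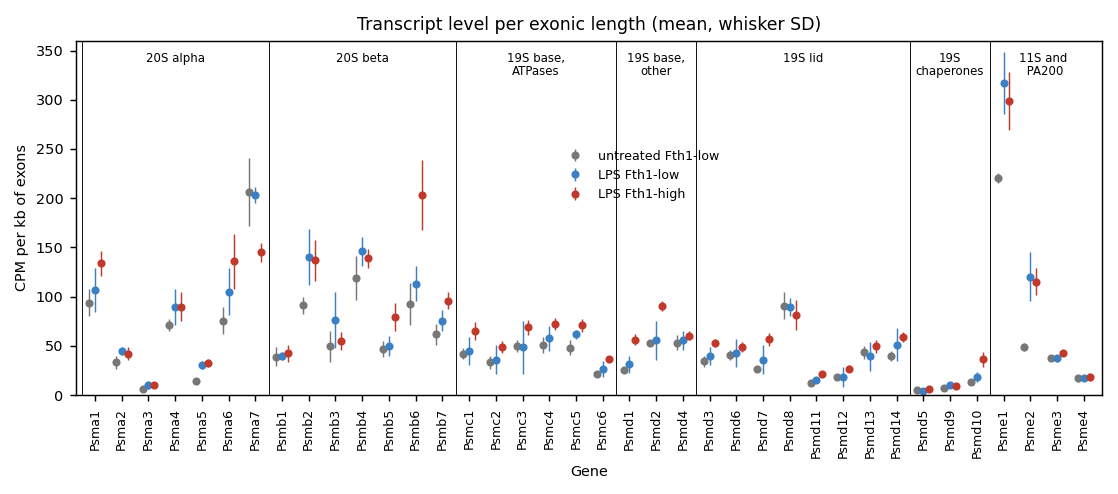
Transcript level per kilobase of exons (CPM per kb, vertical axis) of 38 genes in order of class, as group means (points) with SD (bars). Psme1 is highest throughout, at 221 to 317 CPM per kb, Psmb6 is at 203 in LPS Fth1-high cells, and Psma7 is at 206 in untreated and 145 in LPS Fth1-high cells.

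The alpha subunits form the outer rings of the core, whose tails gate the entry channel. In LPS Fth1-high against untreated cells, 3 of 8 rose (Psma3, Psma5 and Psma6), 0 fell, and the median difference was 0.43. Of all tested genes, 12.4% rose and 11.9% fell. Psma5 was at 20.6 and 15.2 CPM in untreated cells, 41.9 and 34.1 in LPS Fth1-low cells, and 35.6, 45.8 and 39.8 in LPS Fth1-high cells. All 5 LPS libraries lay above both untreated ones, with the 2 LPS groups overlapping. Its log2 difference from untreated was 1.17 ± 0.22 (SE; adjusted p = 0.0038, edgeR) in LPS Fth1-high and 1.03 ± 0.25 (adjusted p = 0.061) in LPS Fth1-low cells. DESeq2, the fit without a filter and the fit on genes with 10 counts in every library also called the latter. At equal depth the difference of LPS Fth1-high from untreated cells was 1.08, with an adjusted p of 0.074 (edgeR).

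Psma6 was at 98.3 and 75.5 CPM in untreated, 100.4 and 139.6 in LPS Fth1-low cells, and 122.2, 186 and 161.4 in LPS Fth1-high cells, with a log2 difference of 0.85 ± 0.25 (adjusted p = 0.035, edgeR) from untreated in the latter. Psma3, the lowest of the alpha genes per length besides Psma8, was at 18.5 and 14.5, 36.8 and 20.5, and 28.1, 31.1 and 28.2 CPM, with 0.82 ± 0.24 (adjusted p = 0.037, edgeR). Both calls were lost without untreated replicate 1 or 2 and without LPS Fth1-high replicate 2 or 3, and that of Psma3 also without LPS Fth1-high replicate 1. The call of Psma3 was also lost with upper quartile scaling (adjusted p = 0.059, edgeR), in DESeq2 (adjusted p = 0.055) and at equal depth (0.62, adjusted p = 0.28, edgeR), and that of Psma6 with total counts (adjusted p = 0.062, edgeR). Psma1, Psma2 and Psma4 did not pass the test, with differences of 0.51, 0.34 and 0.34.

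Psma7 had the only negative difference of the alpha subunits in LPS Fth1-high against untreated cells. It was at 272 and 214.2 CPM in untreated cells, 232.7 and 245.9 in LPS Fth1-low cells, and 160.6, 183.6 and 170.6 in LPS Fth1-high cells. All 3 LPS Fth1-high libraries were below the other 4. The log2 difference was -0.50 ± 0.19 (adjusted p = 0.085, edgeR) from untreated and -0.48 ± 0.19 (adjusted p = 0.18) from LPS Fth1-low cells, so neither passed the test. DESeq2 called it lower against untreated cells. Psma8, the testis-type relative of Psma7, was near 0 throughout, at 1.46 and 0.559, 0 and 0.977, and 0.995, 1.46 and 0.848 CPM in the same order of libraries.

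Among the beta subunits, 3 of 7 tested genes rose in LPS Fth1-high against untreated cells, where 12.4% of all tested genes did. The 3 that rose were those that carry the proteolytic sites. Psmb6, the caspase-like subunit, was at 85.8 and 61.7 CPM in untreated, 80.4 and 100.5 in LPS Fth1-low cells, and 128.9, 177.1 and 178.9 in LPS Fth1-high cells. Every LPS Fth1-high library was above all 4 Fth1-low ones. The log2 difference was 1.13 ± 0.24 (adjusted p = 0.0081, edgeR) from untreated and 0.81 ± 0.25 (adjusted p = 0.084) from LPS Fth1-low cells. Without untreated replicate 2 the first was 0.92 with an adjusted p of 0.093.

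Psmb5, the chymotrypsin-like subunit, was at 47.0 and 37.0 CPM in untreated, 38.5 and 51.5 in LPS Fth1-low cells, and 56.7, 80.9 and 75.3 in LPS Fth1-high cells, again with the Fth1-high libraries above the other 4. Its log2 difference was 0.76 ± 0.23 (adjusted p = 0.038, edgeR) from untreated and 0.60 ± 0.24 (adjusted p = 0.19) from LPS Fth1-low cells. Psmb7, the trypsin-like subunit, was at 80.5 and 62.5, 78.7 and 96.3, and 100.7, 119.8 and 113.1 CPM. Its difference from untreated was 0.64 ± 0.20 (adjusted p = 0.049, edgeR), the weakest of the 13 calls by adjusted p. The calls of Psmb5 and Psmb7 were both lost when any 1 of the untreated libraries or of LPS Fth1-high replicates 2 and 3 was left out, and that of Psmb7 also without LPS Fth1-high replicate 1. Both were lost with total counts (adjusted p = 0.069 and 0.097, edgeR) and at equal depth (adjusted p = 0.055 and 0.13), and that of Psmb7 also without a filter (adjusted p = 0.074) and with ribosomal RNA and mitochondrial genes left out (adjusted p = 0.050).

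The beta subunits without a proteolytic site did not pass edgeR's test. Psmb1, Psmb3 and Psmb4 had log2 differences of 0.12, 0.15 and 0.21 from untreated in LPS Fth1-high cells, and Psmb2 had 0.58 ± 0.22 (adjusted p = 0.082, edgeR). The difference of Psmb2 was close to that of Psmb7 (0.64 ± 0.20), which passed. Limma-voom with and without sample weights also called Psmb2 higher. So did the fit on genes with 10 counts in every library and the 2-group fit. Psmb2 was at 83.5 and 73.1 CPM in untreated cells, 137.3 and 102.7 in LPS Fth1-low cells, and 100.6, 136.1 and 115.2 in LPS Fth1-high cells. All 5 LPS libraries were above the untreated ones. Psmb3 was at 46.3 and 29.3, 73.7 and 43.1, and 34.6, 48.5 and 43.4 CPM, highest in the shallow LPS Fth1-low library.

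**Figure D5:**
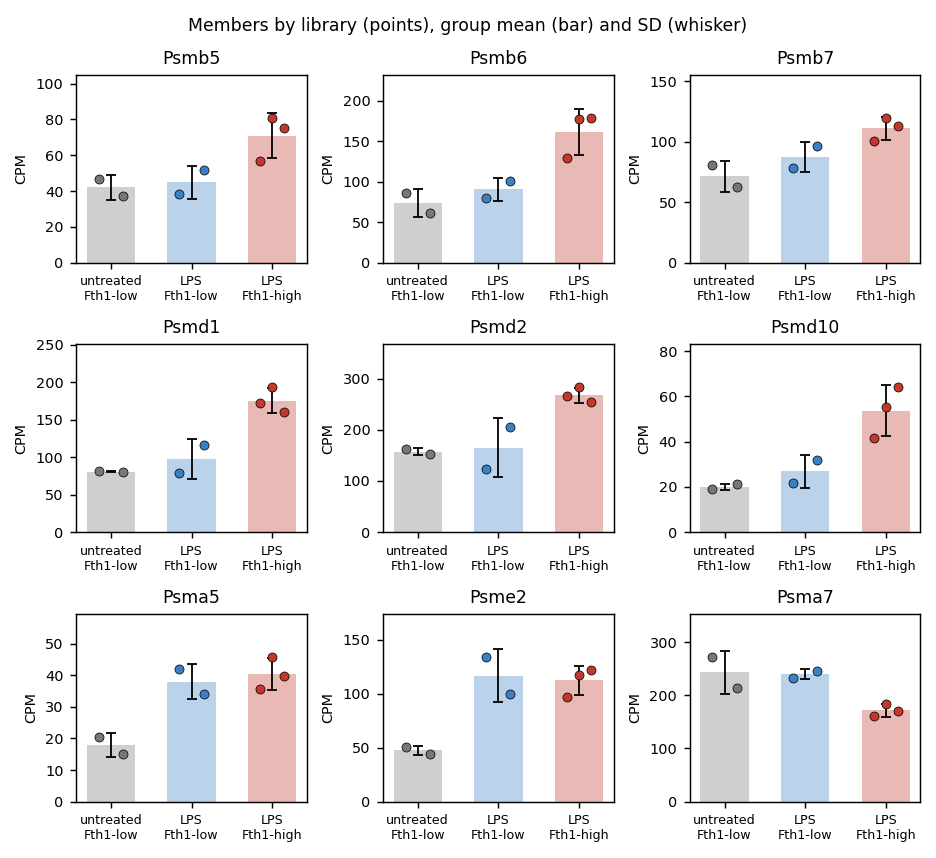
CPM (vertical axes, starting at 0) of 9 genes in each library (points), with group means (bars) and SD (whiskers). Psmb5, Psmb6, Psmb7, Psmd1, Psmd2 and Psmd10 are highest in the 3 LPS Fth1-high libraries, Psma5 and Psme2 are above untreated in both LPS groups, and Psma7 is lowest in LPS Fth1-high cells.

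The immunosubunits can replace these 3 catalytic genes in the core. Psmb8, Psmb9 and Psmb10 summed to 484 ± 40.02 CPM in untreated cells, 863 ± 6.11 in LPS Fth1-low cells and 942 ± 36.6 in LPS Fth1-high cells. In edgeR's test, 2 of the 3 rose with LPS in Fth1-low cells (Psmb9 by a log2 difference of 1.06, adjusted p = 0.024, and Psmb10 by 0.97, adjusted p = 0.037), 3 of 3 rose in LPS Fth1-high against untreated cells, and 0 of 3 differed between the LPS groups. Of all tested genes, 2.99%, 12.4% and 8.25% did so, in the same order. The count ratio of Psmb9 to Psmb6 was 0.919 and 1.28 in untreated, 2.27 and 1.49 in LPS Fth1-low cells, and 1.16, 0.813 and 0.926 in LPS Fth1-high cells. Both LPS Fth1-low libraries thus had the highest ratios, and the LPS Fth1-high libraries overlapped the untreated ones. The ratio of Psmb8 to Psmb5 was 6.22 and 7.15, 11.2 and 9.07, and 9.09, 6.70 and 7.32 in the same order, with the Psmb5 counts uncertain as said above. The ratio of Psmb10 to Psmb7 was 1.75 and 1.8, 3.13 and 2.60, and 2.43, 2.08 and 2.35, so it was above untreated in all 5 LPS libraries.

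The 6 ATPases of the 19S base all had positive differences in LPS Fth1-high against untreated cells, from 0.47 to 0.79 on the log2 scale. In all 6 the groups did not overlap, which is the case in that direction for 30.3% of all tested genes. Only Psmc6 rose by the test. It was at 49.6 and 45.7 CPM in untreated, 45.2 and 70.8 in LPS Fth1-low cells, and 76.3, 88.4 and 83.3 in LPS Fth1-high cells, with a log2 difference of 0.79 ± 0.21 (adjusted p = 0.024, edgeR). The call was lost without either untreated library, without LPS Fth1-high replicate 2 or 3, and at equal depth (adjusted p = 0.087, edgeR). The other 5 had adjusted p-values of 0.065 to 0.29. Between the LPS groups, the difference was highest in Psmc1 (0.48 ± 0.24, adjusted p = 0.30, edgeR) and lowest in Psmc5 (0.18 ± 0.20, adjusted p = 0.67). Psmc1 was at 73.5 and 60.6 CPM in untreated, 55.3 and 86.6 in LPS Fth1-low, and 89.5, 118.8 and 101.7 in LPS Fth1-high cells, the last above all others. Psmc5 was at 70.1 and 56.4, 77.0 and 85.7, and 83.8, 100.2 and 95.5 CPM, where the LPS groups overlapped.

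Psmd1 and Psmd2, the large scaffold subunits of the base to which ubiquitin receptors and shuttle factors dock, both rose in LPS Fth1-high against untreated cells. Psmd1 was at 81.3 and 80.0 CPM in untreated, 78.7 and 116 in LPS Fth1-low cells, and 172, 192.8 and 160.3 in LPS Fth1-high cells. The LPS Fth1-high libraries were all above the other 4. The log2 difference was 1.12 ± 0.22 (adjusted p = 0.0047, edgeR) from untreated and 0.80 ± 0.22 (adjusted p = 0.056) from LPS Fth1-low cells. The second passed the threshold in 6 of 20 alternative fits, with adjusted p-values of 0.015 to 0.21 over them, and the first missed it in 1, without untreated replicate 2 (adjusted p = 0.052).

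Psmd2 was at 162.4 and 152.4 CPM in untreated, 123.9 and 206.2 in LPS Fth1-low cells, and 265.7, 282.6 and 253.5 in LPS Fth1-high cells. It rose by 0.76 ± 0.23 on the log2 scale against untreated (adjusted p = 0.040, edgeR) and was 0.66 ± 0.24 above LPS Fth1-low cells (adjusted p = 0.14). The call was lost without untreated replicate 1 or 2, without any 1 of the LPS Fth1-high libraries, or with total counts (adjusted p = 0.079, edgeR). Psmd4, the ubiquitin receptor of the base, did not pass the test, at 107.2 and 87.6 CPM in untreated, 88.7 and 115 in LPS Fth1-low, and 102.1, 116.7 and 114.2 in LPS Fth1-high cells, with all groups overlapping.

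Of the 8 lid genes, 2 rose in LPS Fth1-high against untreated cells and 0 fell, with a median difference of 0.57. Over all tested genes, 12.4% rose and 11.9% fell. Psmd11 was at 37.8 and 36.7 CPM in untreated, 41.9 and 47.5 in LPS Fth1-low cells, and 65.3, 65.4 and 59.9 in LPS Fth1-high cells, so that the 3 groups did not overlap. Its log2 difference from untreated was 0.77 ± 0.17 (adjusted p = 0.010, edgeR) and from LPS Fth1-low 0.48 ± 0.18 (adjusted p = 0.16). Psmd7, which pairs with the deubiquitinase Psmd14, was at 44.6 and 38.6, 40.2 and 72.9, and 77.9, 98.8 and 91.4 CPM. It rose by 1.10 ± 0.25 (adjusted p = 0.011, edgeR) against untreated cells. Both calls were lost when either untreated library was left out, and that of Psmd11 also without LPS Fth1-high replicate 2. With all libraries thinned to equal depth, the difference was 0.34 for Psmd11 (adjusted p = 0.49, edgeR) and 0.79 for Psmd7 (adjusted p = 0.075).

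Psmd14 itself, which cuts ubiquitin chains off the substrate, was at 61.0 ± 7.09, 78.4 ± 25.7 and 91.3 ± 8.02 CPM, with a difference of 0.58 ± 0.23 (adjusted p = 0.094, edgeR) from untreated. Psmd3 and Psmd12 had differences of 0.62 and 0.56 that missed the threshold, and Psmd6 and Psmd13 of 0.26 and 0.19. Psmd8, the highest lid gene per length in all 3 groups, had the only negative difference of the class (-0.16 ± 0.22). It was at 221.1 and 178.7, 182.5 and 210.9, and 140.3, 202.7 and 192.9 CPM, lowest in LPS Fth1-high replicate 1.

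The largest difference of any member was that of Psmd10, which encodes gankyrin, a chaperone that holds the ATPase Psmc4 during assembly of the base and is also known as a binding partner of the retinoblastoma protein and of MDM2. The gene lies on chrX:140948429-140956728 (GRCm38, minus strand). It was at 19.2 and 21.1 CPM in untreated, 21.8 and 32.0 in LPS Fth1-low cells, and 41.7, 55.2 and 64.0 in LPS Fth1-high cells, with every LPS Fth1-high library above the other 4. The log2 difference was 1.42 ± 0.24 from untreated cells (2.67-fold, adjusted p = 0.0022, edgeR) and 0.89 ± 0.25 from LPS Fth1-low cells (adjusted p = 0.066). The first was called in all 20 alternative fits and the second in 3 of 20. The other chaperones of the base did not pass the test. Psmd5 was at 22.8 ± 3.60, 17.3 ± 7.86 and 25.7 ± 1.47 CPM. Its LPS Fth1-high libraries (24.3, 25.5 and 27.2 CPM) lay above both LPS Fth1-low ones (11.7 and 22.8 CPM) but overlapped the untreated ones. Psmd9 was at 24.2 and 15.3, 28.5 and 22.7, and 21.6, 28.2 and 23.5 CPM, with overlapping groups. The count ratio of Psmd10 to Psmd9 was 0.795 and 1.38, 0.765 and 1.41, and 1.93, 1.96 and 2.72, with all 3 LPS Fth1-high libraries above the other 4. The ratio of Psmd10 to Psmd5 was 0.758 and 1.04, 1.86 and 1.4, and 1.72, 2.16 and 2.35. Here both LPS groups lay above untreated cells and overlapped each other. The shallow library held 13 counts of Psmd10, 17 of Psmd9 and 7 of Psmd5.

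Of the activators, Psme2 alone rose, and it did so in both LPS groups. The 11S (PA28) ring is built of the products of Psme1 and Psme2, both known as interferon-inducible. Psme2 (chr14:55587441-55591113, minus strand) was at 50.6 and 44.5 CPM in untreated, 133.9 and 99.5 in LPS Fth1-low cells, and 97.1, 117.4 and 122 in LPS Fth1-high cells. Both LPS groups lay above untreated cells and overlapped each other. The log2 difference from untreated was 1.26 ± 0.24 (adjusted p = 0.019, edgeR) for LPS Fth1-low cells, 1.24 ± 0.22 (adjusted p = 0.0026) for LPS Fth1-high cells, and between the LPS groups it was -0.03 ± 0.21 (adjusted p = 0.97). In Fth1-low cells the adjusted p was 0.10 without untreated replicate 1, 0.16 without untreated replicate 2 and 0.052 without the shallow LPS Fth1-low replicate 1, at differences of 1.36, 1.19 and 1.10. Of its transcript, 51.8% is shared with Psme2b, which is not among the rows of the count table used here.

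Psme1 was at 250.3 and 242.3 CPM in untreated, 328.1 and 378 in LPS Fth1-low cells, and 296.2, 359.6 and 341.6 in LPS Fth1-high cells. All 5 LPS libraries were above the untreated ones, with differences of 0.52 ± 0.21 (adjusted p = 0.31, edgeR) and 0.43 ± 0.19 (adjusted p = 0.14) that missed the threshold. The count ratio of Psme2 to Psme1 was 0.202 and 0.184 in untreated, 0.408 and 0.263 in LPS Fth1-low cells, and 0.328, 0.327 and 0.357 in LPS Fth1-high cells, above untreated in all 5 LPS libraries. Psme3, which forms the nuclear PA28 gamma ring, was at 101.7 and 100.9, 92.1 and 105.6, and 108.2, 120 and 114 CPM. Psme4, which encodes PA200, was at 93.0 and 124.8, 100.4 and 119.7, and 144.2, 120.3 and 91.9 CPM. Neither passed a test, with differences from untreated of 0.17 ± 0.18 and 0.13 ± 0.24 in LPS Fth1-high cells.

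Genes of proteasome regulation outside the subunit families were described from lists that were written down with earlier results known. On the NRF1 route (7 genes), 3 rose and 2 fell in LPS Fth1-high against untreated cells in edgeR's test, where 12.4% and 11.9% of all tested genes did. Nfe2l1, which encodes NRF1, was at 114 CPM on average in untreated, 137 in LPS Fth1-low cells and 216 in LPS Fth1-high cells (log2 difference 0.92 ± 0.18 from untreated, adjusted p = 0.0050, and 0.65 ± 0.18 from LPS Fth1-low, adjusted p = 0.061, edgeR). Of its small Maf partners, Mafg rose by 0.60 (adjusted p = 0.042, edgeR) and Maff by 2.09 (adjusted p = 0.00017), while Mafk fell by 1.06 (adjusted p = 0.0031). Maff also rose with LPS in Fth1-low cells, by 2.41 (adjusted p = 0.00068, edgeR). In LPS-treated mice, Mafk was lower in the Fth1-high gate, with a difference of -0.86 (adjusted p = 0.027, edgeR). Ngly1, the glycanase that processes NRF1, fell by 0.71 against untreated cells (adjusted p = 0.019, edgeR). The protease Ddi2 and Nfe2l2, which encodes NRF2, did not pass a test in any comparison.

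Among 10 proteasome-bound factors and 19S subunits without a member symbol, 2 rose and 1 fell in LPS Fth1-high against untreated cells. With a background of 12.4% higher and 11.9% lower, 3 of 10 is near the share of all genes and is no result about the list. The deubiquitinase Usp14 rose by a log2 difference of 0.73 (adjusted p = 0.022, edgeR) and the thioredoxin-like Txnl1 by 0.71 (adjusted p = 0.029). Zfand5, a zinc finger protein known to stimulate the 26S proteasome, fell by 1.25 (adjusted p = 0.0014, edgeR), at 246.5 CPM in untreated, 199.5 in LPS Fth1-low cells and 103.9 in LPS Fth1-high cells, and it was also lower than in LPS Fth1-low cells, by -0.95 (adjusted p = 0.018). The 6 genes of the table that were listed with assembly were Psmg1, Psmg2, Psmg3, Psmg4 and Pomp, which help to assemble the core, and Akirin2. Of these, 0 were called by edgeR in any comparison, against 3.62% to 24.3% of all tested genes. At an unadjusted p below 0.05, 1 of the 6 (Pomp) was lower in LPS Fth1-high than in LPS Fth1-low cells, against 10.8% of all tested genes. Of 15 ubiquitin and delivery genes, the autophagy receptor Sqstm1 alone was called, higher in LPS Fth1-high than in LPS Fth1-low cells (0.94 ± 0.24, adjusted p = 0.044, edgeR) and than in untreated cells (1.19 ± 0.24, adjusted p = 0.0063). Of all tested genes, 3.68% and 12.4% were called higher in these comparisons.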

How the data were processed

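Polyadenylated RNA (25 ng per library, stranded kit, 15 PCR cycles, paired 58-bp reads) was sequenced in 7 libraries. The deposited values are whole-number counts per gene and library. Per the submitters' processing notes, DRAGEN, DESeq2 and the build mm10 were used, with versions, annotation, counted strand and filters not given in the sources used here. Rows held 26130 genes, 6880 without a count, and 0 sample columns were left unused.

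The filter was edgeR's filterByExpr, which left 13665 genes for testing (edgeR 4.0.16 in R 4.3.3). Library sizes were scaled by TMM. The 3 groups were fitted together in 1 robust quasi-likelihood model. All 3 pairwise differences were tested two-sided, with Benjamini-Hochberg adjustment over all tested genes and a threshold of 0.05. Standard errors are the log2 difference over the square root of F. The procedure was tested on simulated data. CPM uses TMM-scaled library sizes. Positions and exon lengths are of GENCODE vM21 (GRCm38), matched for all 40 members, and promoters of RefSeq GRCm38.p6. Shared stretches were counted against GENCODE transcripts of other genes.

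The members, lists, motifs and tests were chosen with earlier results of these data known. Values in every library are given by rule for the 6 members of smallest adjusted p in each comparison (all called ones where these are 12 or fewer), the catalytic beta subunits, the activators and the class extremes between the LPS groups; other members are given by means or differences. Psma6 and Psmc6 were given in full beyond that rule, as called members. Of other lists, called genes and the 2 most abundant could be named. Ddi2, Nfe2l2, Pomp and the other genes listed with assembly, all without a call, were named after their values were seen. Alternatives were other scalings, DESeq2 1.42.0, limma 3.58.1 (voom), other filters, 2-group fits, ribosomal genes left out, equal depth, each library left out, and the replicate number as a block.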

Additional observations from a re-analysis of the deposited data

How the results depend on the processing

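Between the LPS groups, 0 members were called higher with the settings used above. DESeq2-type and upper quartile scaling called 1 each and DESeq2 2. The fit on genes with 10 counts in every library and the fit at equal depth called 3 each. In these alternative fits 8.55% to 14.8% of all tested genes were called in either direction, against 8.25% with the settings used above. Leaving out 1 library gave 0 to 4, and the median difference ran from 0.10 to 0.57. For LPS Fth1-low against untreated cells, where 1 was called, DESeq2, no filter, and 10 counts in every library gave 2 each. The share of all genes called in either direction was 6.36%, 2.96% and 6.2% in these fits. Leaving out 1 library gave 0 to 1 there, with medians of -0.056 to 0.42. For LPS Fth1-high against untreated cells, where 13 were called higher, voom with sample weights gave 22 and equal depth 8, and leaving out 1 library gave 3 to 19. DESeq2 called 1 lower there. In the same comparison, voom with sample weights called 34.8% of all tested genes in either direction and equal depth 24.6%. The cause of these shifts was not tested, except that a fit without a library holds fewer samples.

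Replicate numbers paired no libraries by the labels, and the groups were tested as unpaired. Deviations of same-numbered libraries from their group means correlated at -0.04 to 0.29. In a group of 2 libraries these deviations mirror each other, so the correlations cannot show whether libraries were paired. With the replicate number as a block, 8 members were called higher in LPS Fth1-high against untreated cells, all among the 13, and the calls of Psma6 (adjusted p = 0.060), Psmc6 (0.061), Psmb5 (0.11), Psmd2 (0.051) and Psmb7 (0.16) were lost in edgeR's test; the block changed no other count of members called.

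Class sums moved by more than 1 SD in 3 classes. Equal depth put the alpha subunits of LPS Fth1-low cells at 875.8 CPM and the beta subunits at 767.9, and leaving out ribosomal RNA and mitochondrial genes put the latter at 760.7. The activators of untreated cells were at 521.9 CPM with total counts, 533.2 without ribosomal RNA and mitochondrial genes and 480.1 at equal depth. Those of LPS Fth1-low cells were at 727.4 and 725.3 under the last 2 of these, and those of LPS Fth1-high cells at 714.2 without ribosomal RNA and mitochondrial genes. These alternatives for sums were chosen after seeing the data.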
